A study of Mus musculus with 556 samples.

Results

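The regions described here are 400 bins of 100 kb, out of 24022 autosomal bins with a value, in which the Dam-lamin B1 signal was higher in maternal than in paternal pronuclei of the mouse zygote. They were chosen from 15 paternal and 10 maternal pronuclei as the bins with the lowest log2 ratio of the mean paternal signal over the mean maternal signal, with 0.25 added to each mean. The signal is the deposited OE value, the observed number of reads in a bin over the expected number. The average of a cell over these bins was not always 1. In oocytes with Dam-lamin B1, bins outside the 400 averaged 0.882, and the highest oocyte had 0.952. An OE of 1 thus lies at different heights relative to the average in different groups. Because these 25 pronuclei chose the members, their values are given as a description, and tests were made only in other pronuclei and zygotes.

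The study profiled lamina contact by DamID in single oocytes, pronuclei, zygotes and cleavage-stage cells of the mouse and in embryonic stem (ES) cells. DamID expresses a bacterial adenine methyltransferase, Dam, fused to a protein of interest, and sequences the DNA that the fusion has methylated. With Dam fused to lamin B1 the marked DNA is DNA near the nuclear lamina, and Dam alone reports accessible DNA. The injected mRNA mix held AID-Dam-LaminB1 or AID-Dam-only with TIR1 and membrane-EGFP, so that auxin kept the fusion low until its removal for 6 to 8 h.

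The pronuclei carried Dam-lamin B1, were labelled C57BL/6 and were separated by micromanipulation, the paternal and the maternal one being told apart by size and by position relative to the second polar body. Those that chose the members had no other mRNA label. A second set came from zygotes that had also received 2 µg/µl of mRNA for wild-type Kdm5b (19 paternal and 19 maternal) or mutant Kdm5b (6 paternal and 13 maternal), with 5 ng/µl of the fusion mRNA. Kdm5b is a histone demethylase that removes methylation from lysine 4 of histone H3. These 57 pronuclei took no part in the choice, and no pronucleus without Kdm5b mRNA was left for testing. There was no group of pronuclei with Dam alone, so lamina contact and accessibility cannot be told apart in pronuclei. Whole zygotes were labelled C57BL/6 female x CAST/EiJ male. They received Dam-lamin B1 alone (19), with wild-type (14) or mutant (9) Kdm5b, with wild-type (12) or mutant (10) Kdm4d, or with aphidicolin (9) or DMSO (11), and 46 received Dam alone. Other stages with Dam-lamin B1 were 56 oocytes, 47 cells of the 2-cell stage, 41 of the 8-cell stage and 10 ES cells, the last labelled 129/Sv female x CAST/EiJ male. Dam alone was profiled in 43 oocytes, 45 cells of the 2-cell stage and 4 of the 8-cell stage. The labels give the protocol's animals as F1 crosses of CBA and C57BL/6J, and they do not say which cells share an embryo or a mother, so p-values measure the spread between these cells.

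Lamina-associated domains (LADs) are large, gene-poor stretches of chromatin that lie against the inner nuclear membrane and hold mostly silent genes. After fertilization the paternal and the maternal genome sit in separate pronuclei with different chromatin, since sperm chromatin is repackaged with new histones while the maternal genome keeps marks laid down in the oocyte. Lamina contact is set up anew in the zygote and differs between the pronuclei.

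Dam methylates adenine in the palindrome GATC, so the signal of a bin can come only from these sites. The promoters below lie wholly inside members that passed the test in Kdm5b pronuclei, and are shown as examples of gene starts at the tested parental differences. Promoters of genes named by a Gm or LOC number, or by a Rik name that starts with a digit, were left out. That of C530044C16Rik is not printed. Each runs from 250 bases before to 50 bases after the annotated start, 5′ to 3′ on the gene's strand, from RefSeq on build GRCm38.p6, and capitals mark every GATC. Of 32851 promoters of this length 48% held GATC, against 46.3% of the 454 promoters inside members. Vmn1r76 (chr7:11931236-11931535, minus strand) held 2 sites, Nlrp9a (chr7:26534773-26535072, plus strand) 1 and Ccl21d (chr4:41903363-41903662, plus strand) 1. None was present in these windows of Gna14 (chr19:16435417-16435716, plus strand), Sult2a4 (chr7:13989539-13989838, minus strand) and Sult2a3 (chr7:14122999-14123298, minus strand).
Vmn1r76: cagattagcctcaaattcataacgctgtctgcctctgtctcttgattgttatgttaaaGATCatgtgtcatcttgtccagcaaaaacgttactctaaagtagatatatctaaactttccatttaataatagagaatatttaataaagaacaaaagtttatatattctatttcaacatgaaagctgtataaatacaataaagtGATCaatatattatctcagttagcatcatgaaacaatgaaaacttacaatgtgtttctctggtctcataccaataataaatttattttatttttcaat
Nlrp9a: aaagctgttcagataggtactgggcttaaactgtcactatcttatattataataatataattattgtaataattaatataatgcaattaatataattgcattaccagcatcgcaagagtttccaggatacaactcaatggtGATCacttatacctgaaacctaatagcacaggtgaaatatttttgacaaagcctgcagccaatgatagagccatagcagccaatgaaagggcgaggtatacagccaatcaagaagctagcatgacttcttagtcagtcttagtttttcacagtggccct
Gna14: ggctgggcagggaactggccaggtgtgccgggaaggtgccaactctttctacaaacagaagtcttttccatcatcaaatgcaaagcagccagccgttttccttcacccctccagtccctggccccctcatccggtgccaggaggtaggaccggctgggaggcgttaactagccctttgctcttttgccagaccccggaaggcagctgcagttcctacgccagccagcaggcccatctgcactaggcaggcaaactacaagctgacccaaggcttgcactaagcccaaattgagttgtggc
Sult2a4: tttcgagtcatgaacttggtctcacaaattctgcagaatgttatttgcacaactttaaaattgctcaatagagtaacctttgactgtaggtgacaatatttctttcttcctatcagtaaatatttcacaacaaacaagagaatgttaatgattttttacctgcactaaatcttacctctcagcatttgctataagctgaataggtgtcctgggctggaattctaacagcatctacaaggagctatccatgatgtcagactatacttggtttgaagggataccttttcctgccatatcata
Sult2a3: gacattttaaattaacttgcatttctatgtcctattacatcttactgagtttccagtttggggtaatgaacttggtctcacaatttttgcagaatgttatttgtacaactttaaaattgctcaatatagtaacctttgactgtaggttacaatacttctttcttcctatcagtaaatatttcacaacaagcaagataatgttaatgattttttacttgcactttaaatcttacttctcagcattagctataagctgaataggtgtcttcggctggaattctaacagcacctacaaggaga
Ccl21d: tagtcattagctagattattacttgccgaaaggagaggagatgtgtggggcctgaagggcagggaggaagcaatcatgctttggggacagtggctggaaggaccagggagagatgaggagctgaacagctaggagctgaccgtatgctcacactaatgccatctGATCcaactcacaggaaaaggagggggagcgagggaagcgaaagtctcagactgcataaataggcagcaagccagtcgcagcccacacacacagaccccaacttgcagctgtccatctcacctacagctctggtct

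In the pronuclei that chose them, the members had a mean OE of 0.553 ± 0.129 in paternal pronuclei and 2.09 ± 0.400 in maternal pronuclei (SD, n = 15 and 10). The lowest, median and highest paternal pronucleus had 0.277, 0.565 and 0.771, and the maternal ones 1.35, 2.06 and 2.81. Every maternal pronucleus was above every paternal one, which the choice itself favours. All other bins averaged 1.05 in paternal and 0.963 in maternal pronuclei. An OE of at least 1, counted here as contact, was reached by 17.0% of members in a paternal pronucleus and by 57.4% in a maternal pronucleus.

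The rule's value was −1.47 at the median member and 0.11 at the median of all other bins. It ran from −4.69 at the first member to −1.2742 at the last. The last 3 members were chr1:7000001-7100000 over Pcmtd1 (−1.2765), chr17:48600001-48700000 (−1.2753) and chr1:64800001-64900000 at Plekhm3 (−1.2742). The first 3 bins left out were chr1:194600001-194700000 over Plxna2 (−1.2737), chr8:85400001-85500000 (−1.2733) and chr2:131000001-131100000 with Gfra4, Adam33 and Siglec1 (−1.2730). Members and their nearest non-members thus differed in the third decimal. Leaving out one paternal pronucleus kept 342 to 373 of the 400 members, and leaving out one maternal pronucleus kept 308 to 366. The list depended more on how the cells were averaged: a rule on the median OE over cells shared 174 of the 400 members, and one on the difference of mean log2(OE + 0.25) shared 240.

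The most extreme rule values came from bins with a low or unrecovered expected number of reads. The expected number of reads, recovered from the OE values, had a median of 456 per bin, and 45 members (11.2%) had under 228 or none that could be recovered, against 1.88% of all other bins. All 10 members with the lowest rule values were of this kind. The first was chr4:41900001-42000000 with Ccl21d, a chemokine gene of a duplicated cluster. Its maternal mean of 6.19 came from 1 of 10 pronuclei, which had an OE of 61.9, and the paternal pronuclei were all at 0. The others were chr14:43400001-43500000 (Gm8138), chr7:20400001-20500000 and chr7:22200001-22300000 (vomeronasal receptor genes), chr16:98100001-98200000, chr5:93500001-93600000 (Pramel33), chr4:146600001-146700000, chr4:122300001-122400000 (Gm10573), chr5:94700001-94800000 and chr4:122200001-122300000. In 8 of the 10 every paternal pronucleus was at 0. Of these 10, only the Ccl21d bin passed the test in Kdm5b pronuclei, and it did so in the opposite direction (log2 difference 0.95, limma adjusted p = 0.0455). There it had a value above 0 in 2 of 19 paternal and 0 of 19 maternal pronuclei with wild-type Kdm5b, and in 1 of 6 paternal and 0 of 13 maternal pronuclei with mutant Kdm5b.

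The members were again lower in paternal than in maternal pronuclei of the second set, by a smaller amount. With wild-type Kdm5b their mean OE was 0.955 ± 0.0964 in paternal and 1.23 ± 0.118 in maternal pronuclei (SD, n = 19 each). The lowest, median and highest values were 0.727, 0.953 and 1.12 in paternal pronuclei and 1.06, 1.24 and 1.45 in maternal pronuclei. With mutant Kdm5b the mean was 0.967 ± 0.172 in paternal and 1.39 ± 0.203 in maternal pronuclei (SD, n = 6 and 13). There the values were 0.803, 0.930 and 1.27 in paternal pronuclei and 1.03, 1.36 and 1.83 in maternal pronuclei. The parental groups overlapped for both forms of Kdm5b. Within a nucleus the members lay above all other bins in 3 of 19 paternal and 19 of 19 maternal pronuclei with wild-type Kdm5b, and in 1 of 6 paternal and 13 of 13 maternal pronuclei with mutant Kdm5b. The plot of pronuclei shows these values cell by cell.

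**Figure D1:**
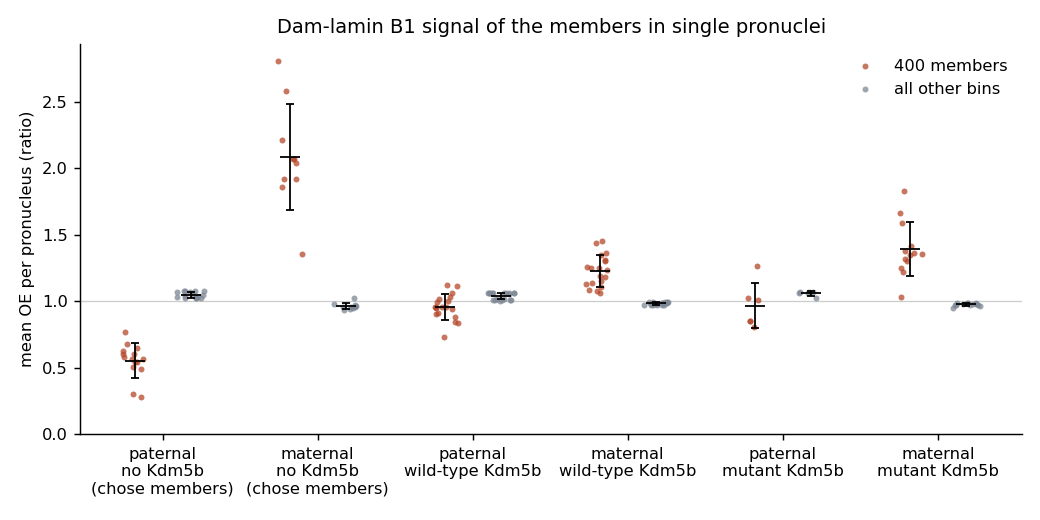
Mean OE (ratio, y axis) over the 400 members (red) and over all other bins (grey) in each single pronucleus, with mean and SD per group; the x axis gives parental origin and Kdm5b mRNA. Members sit at 0.553 in paternal and 2.09 in maternal pronuclei that chose them, at 0.955 and 1.23 with wild-type Kdm5b and at 0.967 and 1.39 with mutant Kdm5b.

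The share of members in contact also differed between the parental pronuclei of the second set. With wild-type Kdm5b it was 39.5% in paternal and 45.9% in maternal pronuclei, against 46.6% and 39.3% of all other bins. With mutant Kdm5b it was 37.6% in paternal and 44.4% in maternal pronuclei, against 45% and 35.5% of all other bins. The members' share thus lay below that of other bins in paternal pronuclei and above it in maternal pronuclei, a contrast that was not tested over the list.

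Each bin was then tested in the 25 paternal and 32 maternal pronuclei with Kdm5b, with the form of Kdm5b as a covariate (limma on log2(OE + 0.25), 2-sided, Benjamini-Hochberg adjustment over 23975 bins). Of 396 members tested, 18 were lower in paternal pronuclei (4.55%, where the share over all bins was 0.909%) and 7 were higher (1.77%, where it was 19.9%). The median bin of the genome was itself 0.30 higher in paternal pronuclei on this log2 scale, while the median member was at −0.09. A negative difference was found in 60.4% of members and 27.8% of all bins. Without adjustment, 46 members were lower (11.6%, against 2.88% of all bins) and 18 higher (4.55%, against 29.4%) at p under 0.05. Of 395 bins tested at the opposite end of the rule, 258 were higher in paternal pronuclei. All bins gave 19.9% higher with adjustment and 29.4% without.

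**Figure D2:**
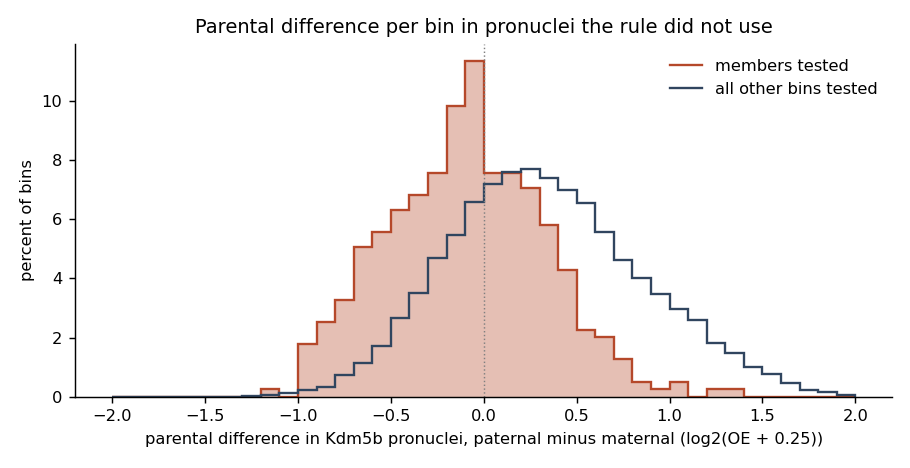
Percent of bins (y axis) by parental difference in Kdm5b pronuclei, paternal minus maternal, on the log2(OE + 0.25) scale (x axis), for members (red) and all other bins (dark line). The members' distribution is centred near −0.09 and that of all other bins near 0.30, with wide overlap.

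Paternal pronuclei were sequenced more deeply, with a mean of 127976 reads in paternal and 83684 in maternal pronuclei with wild-type Kdm5b, and 113762 and 74407 with mutant Kdm5b. When every pronucleus was thinned to 32470 reads, 17 of 386 members were lower (background 0.923%) and 3 higher (background 6.09%) in paternal pronuclei by limma. The median of all bins then stood at 0.15 and that of the members at −0.21, and 68.4% of members against 39.4% of all bins had a negative difference. With depth set equal the number of lower members was thus close to 18, and that of higher members was smaller. The members called were not all the same ones. Of those called in either direction before thinning, 10 were called again at equal reads and 14 were not.

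The smallest p among the lower members belonged to chr7:11900001-12000000, which holds Vmn1r76, a vomeronasal receptor gene for pheromone sensing. Its OE was 0, 0.904 and 2.43 (lowest, median, highest) in paternal and 0, 1.37 and 6.61 in maternal pronuclei with wild-type Kdm5b. With mutant Kdm5b it was 0, 0.517 and 1.89 in paternal and 0.500, 1.64 and 6.76 in maternal pronuclei. Maternal pronuclei ran higher but the groups overlapped, and contact was seen in 6 of 19 paternal and 12 of 19 maternal pronuclei with wild-type Kdm5b, and in 1 of 6 and 11 of 13 with mutant Kdm5b. The paternal minus maternal difference was −1.11 on the log2 scale (SE 0.299, limma adjusted p = 0.00346).

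The start of chromosome 9 held 4 of the lower members. The bin chr9:3800001-3900000 overlaps Gucy1a2, which encodes a subunit of the nitric oxide receptor guanylate cyclase. Its OE was 0, 0.313 and 1.04 in paternal and 0, 1.28 and 3.24 in maternal pronuclei with wild-type Kdm5b, and 0, 0.699 and 1.16 in paternal and 0, 1.11 and 3.28 in maternal pronuclei with mutant Kdm5b. The difference was −0.99 (SE 0.297, limma adjusted p = 0.0091). The other 3 bins span Gria4, which encodes a subunit of AMPA-type glutamate receptors. They belong to a run of 4 adjacent members, chr9:4300001-4700000, that also holds Aasdhppt, Kbtbd3 and Msantd4. Over this run the OE was 0.291, 0.655 and 1.25 in paternal and 0.281, 1.44 and 3.35 in maternal pronuclei with wild-type Kdm5b. With mutant Kdm5b it was 0.266, 0.497 and 1.26 in paternal and 0.159, 2.66 and 4.36 in maternal pronuclei. Single maternal pronuclei fell as low as the paternal ones, and most lay above the highest of them. At chr9:4600001-4700000 the limma difference was −0.95 (SE 0.308, adjusted p = 0.0162).

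A pair of lower members lies on chromosome 11 close to each other. Tlk2 at chr11:105200001-105300000 encodes a kinase that acts on the histone chaperone Asf1. Its mean OE was 0.949 ± 0.930 in paternal and 2.14 ± 1.74 in maternal pronuclei with wild-type Kdm5b, and 0.916 ± 0.721 in paternal and 2.90 ± 2.09 in maternal pronuclei with mutant Kdm5b. Tanc2 at chr11:105600001-105700000 encodes a postsynaptic scaffold protein. It averaged 0.694 ± 0.424 in paternal and 1.53 ± 0.830 in maternal pronuclei with wild-type Kdm5b, and 0.829 ± 0.80 in paternal and 2.51 ± 2.50 in maternal pronuclei with mutant Kdm5b. Both differences were −0.98 on the log2 scale (limma adjusted p = 0.0147 for Tlk2 and 0.0097 for Tanc2), and the SDs reached the size of the means.

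Among the other lower members were both bins of the sulfotransferase genes whose promoters are printed above. Sult2a4 (chr7:13900001-14000000) averaged 0.607 ± 0.348 in paternal and 1.58 ± 1.24 in maternal pronuclei with wild-type Kdm5b, and 0.689 ± 0.693 and 2.53 ± 1.92 with mutant Kdm5b. Sult2a3 (chr7:14100001-14200000) averaged 0.622 ± 0.373 in paternal and 1.36 ± 0.970 in maternal pronuclei with wild-type Kdm5b, and 0.581 ± 0.538 and 1.69 ± 1.23 with mutant Kdm5b. Their differences were −0.94 and −0.87 (limma adjusted p = 0.0152 and 0.0192), and enzymes of this family sulfate steroids and bile acids. The bins at Il7, a cytokine of lymphocyte development (chr3:7600001-7700000), and Synpr, a synaptic vesicle protein (chr14:13500001-13600000), had differences of −0.98 and −0.96 (limma adjusted p = 0.0154 and 0.0163). The remaining lower members had differences between −0.77 and −0.87. They included the bins of Nlrp9a, a gene of the NLR family, Pbx3, a homeodomain factor, Gna14, a G protein alpha subunit, Itsn2, an endocytic scaffold, and Pabpc6 (chr17:9600001-9700000).

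Of the 7 members that were higher in paternal pronuclei with Kdm5b, against the direction of the rule, the leading one was Itpr1 at chr6:108300001-108400000. This gene encodes the inositol trisphosphate receptor that releases calcium from the endoplasmic reticulum. Its OE was 0.246, 1.22 and 3.25 in paternal and 0, 0.349 and 2.01 in maternal pronuclei with wild-type Kdm5b, and 0.604, 1.01 and 1.92 in paternal and 0, 0.458 and 1.59 in maternal pronuclei with mutant Kdm5b. The difference was 1.33 (SE 0.286, limma adjusted p = 0.000212). In the pronuclei that chose it the median was 0.458 in paternal and 0.591 in maternal pronuclei, and the highest maternal one had 7.55. The next 4 by p were chr17:48600001-48700000, chr7:111900001-112000000 and chr6:50700001-50800000, none of which overlaps a protein-coding gene, and chr8:78600001-78700000 at Slc10a7, with differences of 1.22, 1.09, 1.03 and 0.85.

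At equal reads, 10 of the 24 called members that could still be tested stayed past the threshold. Among those named, the Vmn1r76 (limma adjusted p = 0.0155), Tlk2 (0.0291), Synpr (0.0298), Itpr1 (0.0293) and Nlrp9a (0.0174) bins and the Gria4 bin at chr9:4600001-4700000 (0.0126) were still called. The bins of Gucy1a2 (0.137), Tanc2 (0.123), Sult2a4 (0.228), Sult2a3 (0.0984), Il7 (0.229), Pbx3 (0.0699) and Slc10a7 (0.432) were not, with the sign of the difference unchanged.

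Tested apart, wild-type Kdm5b pronuclei gave 11 lower and 6 higher of 396 members by limma, where all bins gave 1.03% lower and 15% higher. At equal reads it gave 5 lower and 2 higher of 387, where all bins gave 0.548% and 3.46%. The 19 mutant Kdm5b pronuclei gave 0 lower and 0 higher of 390, where all bins gave 0% and 0.201%. Without adjustment, 21 members were lower (5.38%, against 1.03% of all bins) and 10 higher (2.56%, against 12.5%) with mutant Kdm5b, and Fisher's exact test on contact also called 0. The median member stood at −0.06 with wild-type Kdm5b, where all bins stood at 0.26, and at −0.16 with mutant Kdm5b, where all bins stood at 0.41. The test of the difference between the 2 forms called 0 of 396 members (background 0.00417% lower and 0% higher), with 11 lower (2.78%, against 4.14% of all bins) and 8 higher (2.02%, against 1.89%) at an unadjusted p under 0.05.

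Setting wild-type against mutant Kdm5b directly gave no called member. In paternal pronuclei limma called 0 of 397 (background 0%), with 16 lower (4.03%, against 6.15% of all bins) and 21 higher (5.29%, against 7.69%) without adjustment. In maternal pronuclei it called 0 of 392 (background 0%), with 15 lower (3.83%, against 2.05%) and 17 higher (4.34%, against 7.75%). In whole zygotes it called 0 of 393 (background 0%), with 9 lower (2.29%, against 2.73%) and 30 higher (7.63%, against 14.7%). Fisher's exact test on contact called 0 in each of them. The members averaged 1.04 ± 0.0660 in zygotes with wild-type Kdm5b and 1.17 ± 0.177 in zygotes with mutant Kdm5b (SD, n = 14 and 9), where all other bins averaged 1.01 and 1.02.

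The higher maternal signal reached beyond the members. At 0.1 Mb before and after a member, over bins that are not members themselves, the mean OE was 1.02 and 1.00 in paternal and 1.25 and 1.23 in maternal pronuclei with wild-type Kdm5b, so the maternal neighbours were as high as the members at 1.23. With mutant Kdm5b it was 0.940 and 0.946 in paternal and 1.29 and 1.26 in maternal pronuclei. At 0.5 Mb before and after, maternal pronuclei had 1.11 and 1.11 with wild-type and 1.12 and 1.10 with mutant Kdm5b. At 2 Mb before the member, paternal and maternal pronuclei had 1.01 and 1.03 with wild-type Kdm5b and 0.927 and 0.965 with mutant Kdm5b. In the pronuclei that chose the members, the neighbours at 0.1 Mb had 0.807 and 0.779 in paternal and 1.39 and 1.3 in maternal pronuclei, so this set had a similar maternal shoulder with a higher member bin (2.09) above it.

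**Figure D3:**
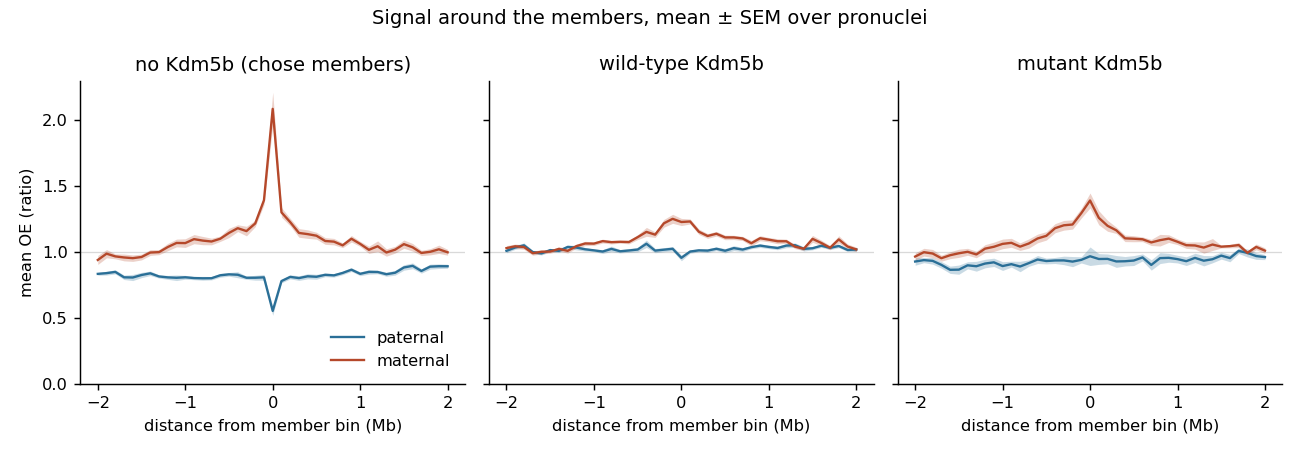
Mean OE (ratio, y axis) by distance from the member bin (Mb, x axis) in paternal (blue) and maternal (red) pronuclei, with SEM over pronuclei shaded. In all 3 panels maternal values at 0.1 Mb from the member lie between 1.23 and 1.39; the member bin itself stands at 2.09 in maternal pronuclei that chose it, and at 1.23 and 1.39 with wild-type and mutant Kdm5b.

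The members fell into 322 runs of adjacent bins. Of these, 263 were single bins, 44 were pairs, 12 were runs of 3, 2 were runs of 4 and 1 was a run of 5, so that 137 members had a member beside them. The longest run, chr9:6700001-7200000, holds Dync2h1, the motor of retrograde transport in cilia, and Dcun1d5. Its OE was 0.566, 0.919 and 1.62 in paternal and 0.205, 1.14 and 2.83 in maternal pronuclei with wild-type Kdm5b, and 0.628, 1.01 and 1.36 in paternal and 0.108, 1.74 and 2.48 in maternal pronuclei with mutant Kdm5b. Maternal pronuclei spread more widely on both sides of the paternal ones, and no bin of this run passed the test. The run chr7:14500001-14900000, with Vmn1r90 and the oocyte-specific homeobox gene Obox7, averaged 1.05 in paternal and 1.60 in maternal pronuclei with wild-type Kdm5b, and 0.853 and 1.60 with mutant Kdm5b. The run chr2:34200001-34500000, with Pbx3 and Mapkap1, averaged 0.986 in paternal and 1.73 in maternal pronuclei with wild-type Kdm5b, and 0.644 and 0.636 with mutant Kdm5b. The 2 remaining long runs lie in gene families of low or uncertain expected number. At chr4:122200001-122500000 (Gm10573) the averages were 0.194 in paternal and 0.0395 in maternal pronuclei with wild-type Kdm5b, and 0.187 and 0.564 with mutant Kdm5b. At chr5:94600001-94900000 (Pramel44 and Pramel43) they were 1.60 and 1.64 with wild-type Kdm5b, and 1.32 and 2.19 with mutant Kdm5b.

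Members were unevenly placed. Chromosome 9 held 65 of the 400 (16.2% of members, 5.06% of all bins), followed by chromosome 7 with 41, chromosome 4 with 35, chromosome 14 with 31 and chromosome 5 with 30, while chromosome 16 held 4 and chromosome 12 held 5. The first 30 Mb of a chromosome, next to the centromere in the mouse, held 151 members (37.8%, against 23.0% of all other bins and 9.5% of the bins at the opposite end of the rule). The first 10 Mb held 82 members (20.5%, against 7.21% of all other bins). The plot of position shows both patterns.

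**Figure D4:**
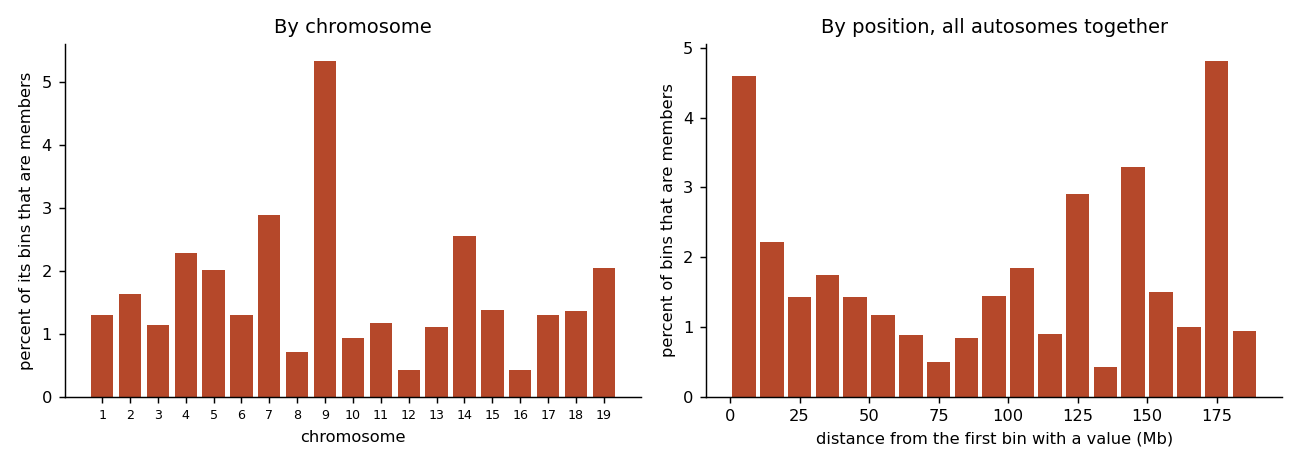
Percent of bins that are members (y axes) by chromosome (left) and by distance in Mb from the first bin with a value, all autosomes together (right). Chromosome 9 reaches 5.35%, and the first 10 Mb stand above the next 80 Mb; the last positions rest on few chromosomes.

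The calls also varied with position, among members as over all bins, and this variation was not tested. Of the 148 members tested in the first 30 Mb, limma called 14 lower (9.46%) and 0 higher in paternal pronuclei with Kdm5b, where all bins of these stretches gave 2.72% lower and 7.1% higher. Of the 248 members beyond 30 Mb it called 4 lower (1.61%) and 7 higher (2.82%), where all bins there gave 0.364% lower and 23.8% higher. Without the first 30 Mb the lower share was thus 1.61%, against 4.55% over all members. The members of the first 30 Mb averaged 0.866 in paternal and 1.23 in maternal pronuclei with wild-type Kdm5b, where other bins of these stretches averaged 1.02 and 1.17. With mutant Kdm5b they averaged 0.848 in paternal and 1.51 in maternal pronuclei, where other bins there averaged 1.03 and 1.22. Beyond 30 Mb the members averaged 1.01 in paternal and 1.23 in maternal pronuclei with wild-type Kdm5b, and 1.04 and 1.32 with mutant Kdm5b. On chromosome 9 the members averaged 0.935 in paternal and 1.19 in maternal pronuclei with wild-type Kdm5b, where other bins of that chromosome averaged 1.05 and 0.920. With mutant Kdm5b they averaged 1.01 and 1.29, where other bins of chromosome 9 averaged 0.993 and 0.843, and limma called 4 of the 65 members lower (6.15%), where all bins of the chromosome gave 0.741%.

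By the deposited LAD coordinates of the inner cell mass (ICM) and the trophectoderm (TE) of the blastocyst, 218 members were at least 50% covered by LADs in both lists (54.5%, against 50.2% of all other bins). In neither list were 120 (30%, against 32%), 23 were in the ICM list alone (5.75%, against 8.27%) and 39 in the TE list alone (9.75%, against 9.47%). Members outside both lists averaged 0.527 in paternal and 2.03 in maternal pronuclei that chose them, where other bins of this class averaged 0.738 and 0.710. With wild-type Kdm5b they averaged 0.960 in paternal and 1.11 in maternal pronuclei, where other such bins averaged 1.08 and 0.887. With mutant Kdm5b they averaged 0.911 in paternal and 1.16 in maternal pronuclei, where other such bins averaged 0.831 and 0.735. Limma called 3 of 118 of these members lower in paternal pronuclei (2.54%), where all bins of this class gave 0.209%. Of the members in both lists it called 14 of 217 lower (6.45%), where all bins of that class gave 1.43%.

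Protein-coding genes were missing from a smaller share of members than of other bins. No protein-coding gene had its midpoint in 163 members (40.8%, against 55.9% of all other bins), and none overlapped 85 members (21.2%, against 35.3%). Of 22 fixed gene lists, 5 had a bin among the members. Vomeronasal receptor genes filled 196 bins, of which 15 were members (7.65%, against 1.67% of all bins), and 10 of the 15 had a low or unknown expected number. Of the 12 tested, the Vmn1r76 bin alone passed. Zinc finger genes of the Zfp series had 11 of 283 bins among the members, olfactory receptors 2 of 338 and glutamate receptor genes 1 of 26, the last being Gria4.

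The largest share among these lists was that of Pramel and Oog genes, which are multicopy genes expressed in germ cells and early embryos, with 6 of 35 bins (17.1%). Of these, 4 had a low or unknown expected number, and limma called 0 of 6 (all at an adjusted p of 0.15 or more). The bin of Pramel50 (chr5:95700001-95800000) averaged 0.751 in paternal and 2.34 in maternal pronuclei with wild-type Kdm5b, and 0.823 and 2.81 with mutant Kdm5b. The bin of Pramel47 (chr5:95300001-95400000) averaged 1.20 and 1.55 with wild-type Kdm5b, and 0.660 and 3.03 with mutant Kdm5b. The bin of Pramel33, one of the 10 lowest by the rule, averaged 1.04 in paternal and 0.743 in maternal pronuclei with wild-type Kdm5b, and 0.893 and 0.140 with mutant Kdm5b. Reads of such near-identical copies may be placed on any of them, so these values are uncertain.

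Followed over development with Dam-lamin B1, the members had a mean OE of 1.03 ± 0.167 in oocytes, 0.981 ± 0.124 in zygotes, 1.13 ± 0.10 at the 2-cell stage, 1.20 ± 0.0931 at the 8-cell stage and 0.944 ± 0.0668 in ES cells (SD, n = 56, 19, 47, 41 and 10). All other bins had 0.882, 1.02, 0.997, 1.01 and 0.99. Members lay above other bins in 46 of 56 oocytes, 8 of 19 zygotes, 42 of 47 cells of the 2-cell stage, 41 of 41 of the 8-cell stage and 4 of 10 ES cells. The members were thus above the other bins in most oocytes and most cells of the cleavage stages, and in fewer than 50% of ES cells and of zygotes with Dam-lamin B1 as the only treatment. With Dam alone they averaged 1.04 in oocytes, 0.961 in zygotes, 0.980 at the 2-cell stage and 0.957 at the 8-cell stage, where other bins averaged 0.993, 1.01, 1.00 and 0.997. Members lay above other bins with Dam alone in 35 of 43 oocytes and 7 of 46 zygotes. At the 2-cell and 8-cell stages this held in 18 of 45 and 2 of 4 cells. The order seen in oocytes with Dam-lamin B1 was thus also seen with Dam alone. The mRNA dose for Dam-lamin B1 was 5 ng/µl in oocytes and zygotes, 10 ng/µl for the 2-cell and 20 ng/µl for the 8-cell stage. Oocytes and zygotes thus shared a dose, while stage and dose cannot be told apart from the zygote to the 8-cell stage. Further oocytes with Dam-lamin B1 were labelled 20 ng (17 cells) or 50 ng (23 cells). Members averaged 1.09 and 1.05 in them, where other bins averaged 0.976 and 0.979. Members lay above other bins in 16 of 17 and 20 of 23 of these oocytes.

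**Figure D5:**
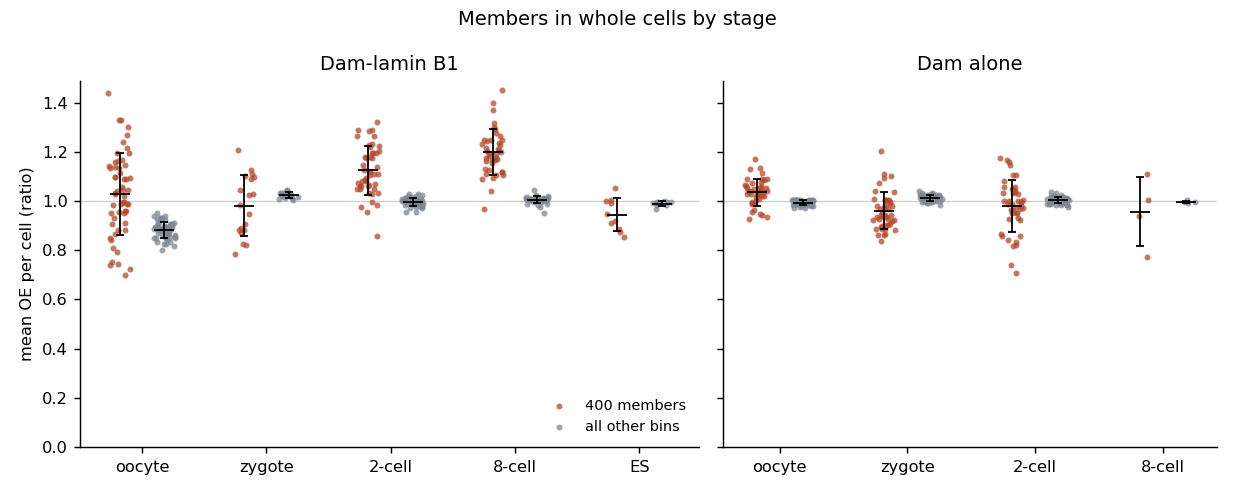
Mean OE (ratio, y axis) over the 400 members (red) and all other bins (grey) in each cell, by stage (x axis), with Dam-lamin B1 (left) and Dam alone (right), and mean with SD per group. With Dam-lamin B1 the members are above other bins at the 2-cell (1.13) and 8-cell (1.20) stages. In zygotes they average 0.981, where other bins average 1.02.

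At the 8-cell stage the members with a low or unknown expected number stood apart. They averaged 2.45 ± 0.786, while the other 355 averaged 1.04 ± 0.0617 (SD, n = 41), a value close to the 1.01 of all other bins. At the 2-cell stage the order was reversed, with 0.688 ± 0.362 for members of low or unknown and 1.18 ± 0.104 for members of usual expected number (SD, n = 47). In zygotes members of usual expected number averaged 0.932 ± 0.0985, below the 1.02 of all other bins (SD, n = 19). Those of low or unknown expected number averaged 1.36 ± 0.741 in zygotes. Contact in zygotes was seen in 34.1% of all members and 39.1% of all other bins.

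The members' levels at the cleavage stages went with LAD class. Members in both LAD lists averaged 1.14 in zygotes, 1.47 at the 2-cell stage, 1.59 at the 8-cell stage and 1.16 in ES cells, where other bins of this class averaged 1.20, 1.18, 1.22 and 1.20. At the 8-cell stage 49.5% of members in both lists were in contact, against 45.7% of other bins of this class. Members in neither list averaged 0.783, 0.646, 0.584 and 0.609, where other such bins averaged 0.774, 0.712, 0.714 and 0.673. Members of the first 30 Mb averaged 1.48 at the 2-cell stage and those beyond 0.910, and other bins of the first 30 Mb averaged 1.34. At the 8-cell stage the order of the means by position was the other way round, with 1.01 in the first 30 Mb and 1.31 beyond, where other bins of the first 30 Mb averaged 0.883. The share of members in contact at this stage hardly differed by position, with 37.99% in the first 30 Mb and 38.48% beyond. The difference by position at the 8-cell stage was thus one of the mean OE, and its cause was not tested. On chromosome 9 the members averaged 1.39 at the 2-cell and 1.13 at the 8-cell stage, and other bins 1.04 and 1.07. The Vmn1r76 bin was highest at the 2-cell stage, with a mean OE of 1.27 in oocytes, 1.28 in zygotes, 3.09 at the 2-cell stage, 1.48 at the 8-cell stage and 0.985 in ES cells. The Tlk2 bin had 0.830, 1.14, 0.387, 1.35 and 0.976 at the same stages.

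In whole zygotes Dam-lamin B1 (5 ng/µl of mRNA) was set against Dam alone (20 ng/µl), so that construct and dose cannot be told apart. Limma called 96 of 395 members lower (24.3%, where all bins gave 37.4%) and 28 higher (7.09%, where all bins gave 22.1%) with Dam-lamin B1. The median member stood at −0.24 and the median of all bins at −0.36. Both called shares were below the background. The zygotes with Dam-lamin B1 had 59209 reads on average and those with Dam 107564. At equal reads 27 of 388 members were lower (background 17.6%) and 26 higher (background 19.8%). Lower calls thus outnumbered higher ones before thinning but were close to them in number at equal reads, among members as over all bins. These calls followed LAD class over the whole genome. Of members in both LAD lists, 30 of 215 were lower (14%) and 22 higher (10.2%), where all bins of the class gave 16% and 34.1%. Of members in neither list, 48 of 118 were lower (40.7%) and 1 higher (0.847%), where all bins of the class gave 73.2% and 2.17%.

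The lowest by this test was the bin of Rbm33, an RNA-binding protein gene (chr5:28300001-28400000), with 0.287 ± 0.610 with Dam-lamin B1 and 1.28 ± 1.03 with Dam (SD, n = 19 and 46; log2 difference −1.71, SE 0.288, limma adjusted p = 6.84e-07). The next were chr17:47400001-47500000, with Guca1a and the TFIID subunit gene Taf8, at 0.719 and 2.18, and chr18:77000001-77100000, with Katnal2 and Pias2, at 0.375 and 1.29. The highest was chr1:32000001-32100000, with no protein-coding gene, at 2.93 ± 2.40 with Dam-lamin B1 and 0.698 ± 0.642 with Dam (1.57, limma adjusted p = 1.07e-05). It was followed by chr4:18100001-18200000 over Mmp16, a membrane-bound matrix metalloproteinase, at 2.34 and 0.719, and by the Tanc2 bin at 2.21 and 0.689. Tanc2 is thus a member called between parental pronuclei with Kdm5b and between the constructs in whole zygotes. Its parental difference was not called at equal reads, and construct and dose cannot be told apart in these zygotes.

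The remaining zygote treatments moved no member past the threshold. With wild-type and mutant Kdm4d, a demethylase of histone H3 lysine 9, the members averaged 1.09 ± 0.116 and 1.14 ± 0.0975 (SD, n = 12 and 10), and limma called 0 of 393 (background 0% lower and 0.00418% higher), with 12 lower (3.05%, against 2.16% of all bins) and 8 higher (2.04%, against 1.72%) without adjustment. With aphidicolin, an inhibitor of DNA replication, and with DMSO they averaged 1.10 ± 0.0908 and 1.12 ± 0.158 (SD, n = 9 and 11), and limma called 0 of 389 (background 0.00418% lower and 0% higher), with 15 lower (3.86%, against 2.83% of all bins) and 13 higher (3.34%, against 2.63%) without adjustment. Fisher's exact test on contact called 0 in both. Members lay above all other bins in 7 of 14 zygotes with wild-type and 6 of 9 with mutant Kdm5b, in 9 of 12 with wild-type and 8 of 10 with mutant Kdm4d, and in 7 of 9 with aphidicolin and 9 of 11 with DMSO.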

How the data were processed

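Single cells and pronuclei were profiled by DamID. The authors deposited 1 table of OE values, a ratio of observed over expected reads per 100-kb bin and cell, for 512 cells, of which 498 have a group in the labels and 14 carry labels that contradict each other and entered no comparison. Per the submitters' processing notes cutadapt, BWA 0.7.12 and build mm10 were used. The making of the expected number is not described in these sources. The LAD lists were deposited by the authors as interval coordinates. Of 24639 bins, 617 had no value in any cell.

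The 400 members were found by the stated rule, and members, gene lists and named bins were chosen with earlier results of these data known. Named bins are the 10 lowest by the rule, 3 on each side of its limit and the 6 longest runs. Also named are the 10 lower and 5 higher members of smallest p in Kdm5b pronuclei, and 3 in each direction between the constructs. Some further lower members and the bins of Pramel genes were named outside these ranks. Stage values of the Vmn1r76 and Tlk2 bins were given as examples. Multiplying OE by the recovered expected number gave whole reads for at least 99.96% of non-zero values (tolerance 0.02 reads), and 23542 to 1090899 reads per cell (median 71728). The depth limits the precision of a single bin in a single cell. Bins with a mean OE of at least 0.1 over the cells compared were tested with limma 3.58.1 (R 4.3.3) on log2(OE + 0.25), 2-sided, with Benjamini-Hochberg adjustment over all bins and a threshold of 0.05. Fold differences on this scale understate changes of low bins. The tests were also run on simulated reads drawn independently for each cell, which does not cover cells that share an embryo. Tables and figures were made with Python 3.11.15, numpy 2.4.6, pandas 2.3.3 and matplotlib 3.10.9. No pair of cells correlated above r = 0.639, so none was treated as a duplicate. Genes and promoters came from RefSeq tables on GRCm38.p6. Bin sequences and GC content were not analysed here. Alternatives were other pseudocounts, filters, scales, definitions of members, equal reads, depth or replicate number as a term, and Fisher's exact test on contact.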

Additional observations from a re-analysis of the deposited data

How the results depend on the processing

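The share of members called lower in paternal pronuclei with Kdm5b was 7.58% with a pseudocount of 1, 2.27% with 0.1, 7.07% on OE without a log, 13.1% on means over 3 bins and 1.61% without the first 30 Mb (chosen after seeing the data), against 4.55%. The share called higher was 1.01% with a pseudocount of 1, 0.505% without a log, 2.78% over 3 bins, 2.82% without the first 30 Mb, 0.777% at equal reads and 0.25% with members chosen by mean log2, against 1.77%. With wild-type Kdm5b alone, 2.78% were lower, and 4.55%, 4.29% and 9.34% with a pseudocount of 1, without a log and over 3 bins, 1.29% at equal reads and 0.253% by Fisher's exact test. The higher share there, 1.52%, became 1.01%, 0.505% and 2.53% under the first 3 of these, 0.517% at equal reads, 1.01% with depth as a covariate, 0% by Fisher's exact test, 0.51% with 200 members and 0.501% with members by mean log2. Means over 3 bins gave 0.513% lower and 0.256% higher with mutant Kdm5b, and 0.756% higher between wild-type and mutant Kdm5b in paternal pronuclei, against 0% as reported. In that last comparison the members' median minus that of all bins reversed to −0.001922 with members by mean log2. Between the constructs in zygotes, 24.3% lower became 11.6% without a log, 6.96% at equal reads, 9.37% with depth as a covariate, 7.59% by Fisher's exact test and 14.4% with 200 members, and 7.09% higher became 4.56% with a pseudocount of 0.1, 12.4% without a log, 11.4% over 3 bins, 11.4% with the depth covariate and 14.2% with members by mean log2. The mean over members in zygotes with Dam was 0.874 with 200 members. The share in contact, members minus other bins in percentage points, reversed to −1.247 at the 8-cell stage with Dam-lamin B1 and −0.9299 in oocytes with Dam at equal reads, to 0.01916 in ES cells at an OE of at least 2, and at the 8-cell stage with Dam to −0.2924 at that limit and −0.04162 at equal reads. Correlations of same-numbered pronuclei ran from −0.04273 to 0.06836 across parents. Pronuclei of 1 zygote hold separate genomes and need not correlate, so these values do not show whether the numbers pair them. With the replicate block the lower share was 3.54% and the higher 2.02% in Kdm5b pronuclei, and 15.7% and 3.29% between the constructs. Of the 25 members called in Kdm5b pronuclei, 10 of the 24 still testable were called at equal reads, and 4 (the Vmn1r76, Tlk2, Synpr and Itpr1 bins) under all 9 alternative settings; none changed sign. The cause of these changes was not tested. Of the 400 members, 308 to 373 were shared with one pronucleus left out of the choice, 338 with a pseudocount of 1 in the rule, 240 by mean log2 and 174 by the median OE over cells.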

Other observations

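For 14 cells the labels contradict each other, so they entered no group. The members' mean OE in them had a lowest value of 0.984, a median of 1.09 and a highest of 1.25. The members lay above all other bins in 14 of the 14.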
